A study of Mus musculus with 3 samples.

Results

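Layer 6 corticothalamic neurons were sought by a fixed rule on marker transcripts in single-nucleus RNA-seq (snRNA-seq) data from mouse prefrontal cortex (PFC), and 58 of the 43464 kept nuclei met it. A nucleus was selected when it held at least 200 genes and under 10% mitochondrial counts, at least 4 unique molecular identifiers (UMIs, each standing for 1 captured transcript) summed over *Foxp2*, *Tle4*, *Hs3st4* and *Syt6* with at least 2 of them from *Hs3st4*, and at least 1 UMI of *Slc17a7*. It also had to hold no UMI of *Gad1*, *Gad2*, *Slc32a1*, *Ccn2* or *Nxph4* and at most 1 of *Tshz2*. The levels of these 11 genes chose the nuclei and are given below only as a description. The data came from 3 libraries of male mice of 6 to 8 weeks, each made from pooled PFC nuclei that were sorted with an antibody to the neuronal protein NeuN and collected from both the positive and the negative gate. The C57BL/6 library was wild-type and pooled 5 mice, the *Nav1* KO library pooled 4 mice of the C57BL/6 strain with a germline deletion at the end of *Nav1* exon 1, and the BTBR library came from BTBR T<+> Itpr3<tf>/J mice whose number the sources used here do not give. With 1 library per group, genotype, strain and library cannot be told apart, so no test between groups was run, and the 95% intervals below (exact) reflect the counting of UMIs or nuclei alone.

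Layer 6 corticothalamic neurons are glutamatergic projection neurons that send axons to the thalamus and, through local branches and collaterals, also shape activity in the overlying cortex and in inhibitory thalamic cells. Their identity during development depends on transcription factors such as *Tbr1*, *Sox5* and *Fezf2*, and in the adult they are recognized by the forkhead factor *Foxp2*, the Groucho corepressor *Tle4*, the heparan sulfate 3-O-sulfotransferase *Hs3st4* and the vesicle protein *Syt6*. Layer 6b neurons lie just beneath them and share several of these genes, but also carry *Ccn2* and *Nxph4*, which the rule used to leave them out.

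The selected nuclei numbered 22 of 14630 in C57BL/6 (0.150%, interval 0.0943 to 0.228%), 21 of 14056 in *Nav1* KO (0.149%, 0.0925 to 0.228%) and 15 of 14778 in BTBR (0.102%, 0.0568 to 0.167%). As shares of excitatory nuclei, those with a *Slc17a7* UMI and none of the 3 GABAergic genes, these were 0.305%, 0.295% and 0.212%. The 3 intervals overlapped, so no difference in abundance was detectable at this depth. The requirement for 2 *Hs3st4* UMIs set this number: 705, 628 and 584 nuclei of the C57BL/6, *Nav1* KO and BTBR libraries held at least 1 *Hs3st4* UMI, and 65, 76 and 52 held at least 2. Of the 781, 716 and 640 *Hs3st4* UMIs of the libraries, the selected nuclei held 6.15%, 6.15% and 4.84%. Of the 39, 55 and 33 nuclei that also met the limits on the 4-gene sum and on *Slc17a7*, 25, 28 and 16 held none of the 3 GABAergic genes. Accepting 1 *Hs3st4* UMI would have given 104, 107 and 82 nuclei (0.711%, 0.761% and 0.555%), and thinning every nucleus to 1000 UMIs left 0, 2 and 0, so the shares hold for this rule at this depth.

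The selected nuclei held a median of 3425.5 UMIs in C57BL/6, 3968 in *Nav1* KO and 4862 in BTBR, above the medians of 2514, 3242 and 2848.5 for the other excitatory nuclei. Summed, they gave 78279, 105746 and 87701 UMIs, so that 3 UMIs of a gene, taken here as the limit that a count of 0 allows, correspond to 38.3, 28.4 and 34.2 CPM, the usual scaling of counts to a common total. The 3 libraries shared 71, 66 and 61 barcodes in pairs, and no selected nucleus carried a shared barcode. A doublet caller, Scrublet, marked 1, 1 and 0 nuclei of the C57BL/6, *Nav1* KO and BTBR libraries and so had not worked, and no doublets were removed. The tenth of nuclei with the highest doublet scores held 2 of the 22, 1 of the 21 and 3 of the 15 selected nuclei.

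Among the 58 nuclei, *Hs3st4* stood at exactly 2 UMIs in 52 and above 2 in 6. *Tle4* was found in 52 nuclei, *Foxp2* in 36 and *Syt6* in 19, while 31 held both *Foxp2* and *Tle4* and 9 held all 3 of these genes. The sum over the 4 genes was exactly 4 in 16 nuclei and 8 or more in 14. *Syt6* was present in 6 of 22 nuclei in C57BL/6, 4 of 21 in *Nav1* KO and 9 of 15 in BTBR. Of 2 genes that the rule did not use, *Col12a1* stood at 192, 62.8 and 89.1 CPM in the 7, 3 and 6 nuclei with a sum of 4, and at 228, 193 and 141 CPM in the 82, 86 and 67 nuclei left out only because *Hs3st4* was at 1 UMI. *Garnl3* stood at 192, 125.5 and 134 CPM in the former and at 317, 229 and 241 CPM in the latter. The values at a sum of 4 rested on 4, 1 and 2 UMIs of *Col12a1* and on 4, 2 and 3 of *Garnl3*. In the 15, 18 and 9 selected nuclei with a sum of 5 or more, *Garnl3* stood at 626.5, 256 and 337 CPM and *Col12a1* at 226, 134 and 184 CPM.

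**Figure D1:**
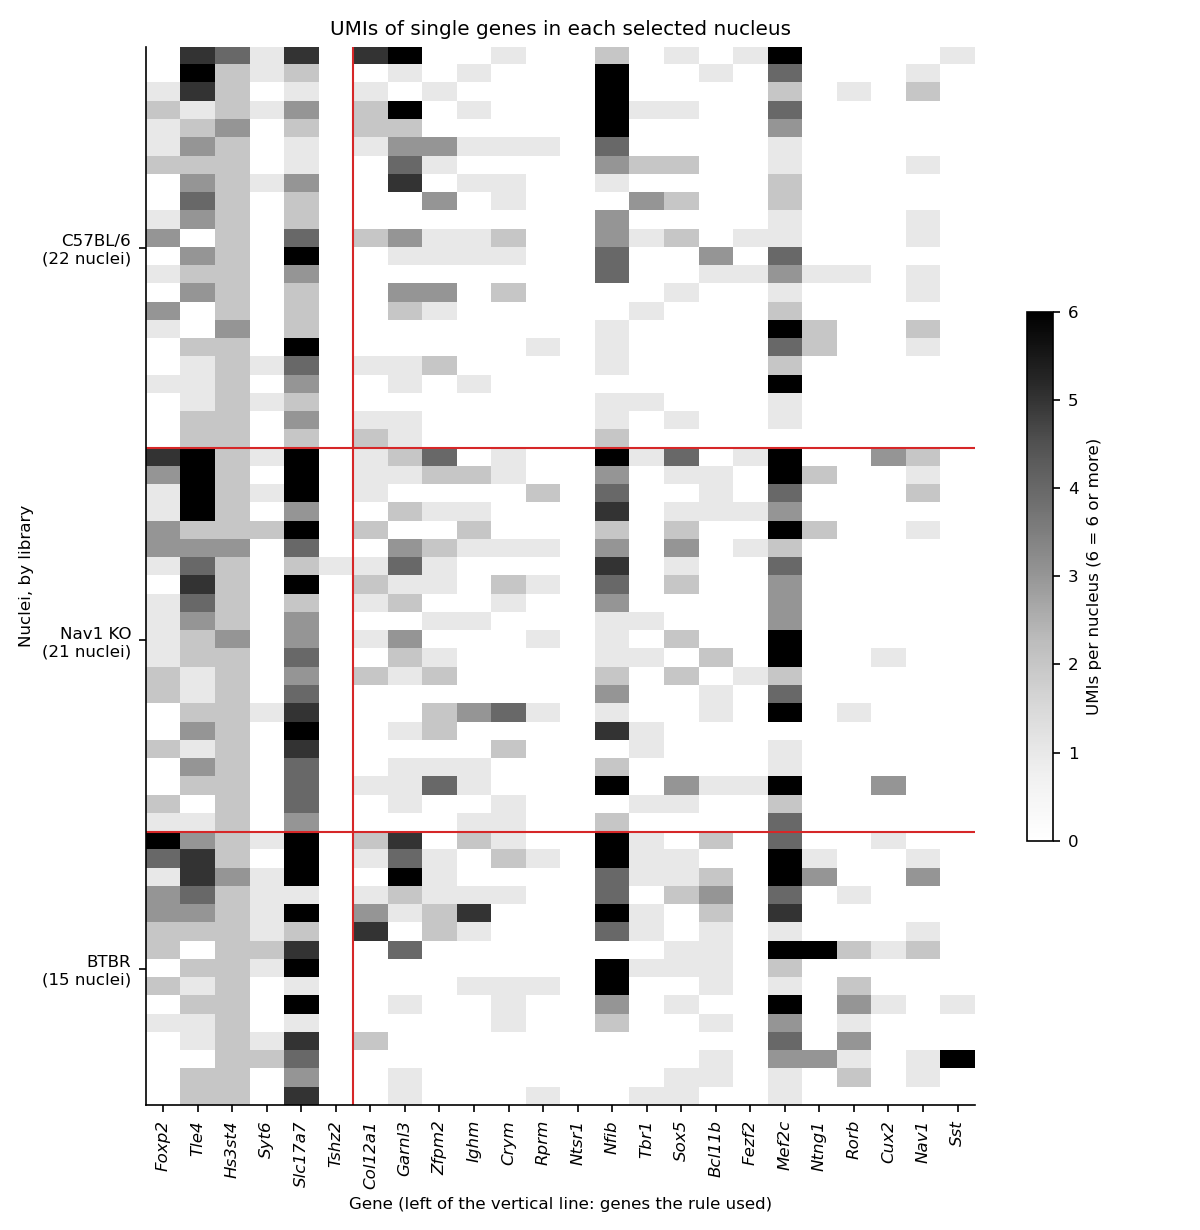
UMIs per nucleus (grey scale, 0 to 6 or more) of 24 genes (columns) in the 58 selected nuclei (rows), grouped by library and ordered within a library by the summed UMIs of *Foxp2*, *Tle4*, *Hs3st4* and *Syt6*; the 6 genes left of the red line were used by the rule. *Ntsr1* is empty in all 58 nuclei, *Garnl3* is filled in 38, and *Sst* is dark in a single BTBR nucleus.

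The selected nuclei were then described by corticothalamic marker genes that the rule did not use. These genes were listed with earlier results of these data known, so here and below they give no independent support to the label. *Col12a1*, a fibril-associated collagen, was found in 25 of the 58 nuclei, *Garnl3*, which encodes a protein with a GTPase-activating domain, in 38, and *Zfpm2*, a zinc finger cofactor of GATA factors, in 27. Together 46 nuclei held a UMI of at least 1 of these 3 genes, 17 of 22 in C57BL/6, 18 of 21 in *Nav1* KO and 11 of 15 in BTBR. As a rough measure of free RNA, nuclei with at least 20 oligodendrocyte UMIs and no *Slc17a7* were used, with medians of 1798.5, 1993 and 2217.5 UMIs. Since they had to lack *Slc17a7* and held fewer UMIs, their shares can lie under the free RNA of the selected nuclei. *Col12a1* was found in 40.9%, 47.6% and 40.0% of the selected nuclei of the 3 libraries and in 2.27%, 1.45% and 1.28% of these oligodendrocyte nuclei. *Garnl3* stood at 4.55%, 2.90% and 8.97% in the same oligodendrocyte nuclei, against 15 of 22, 14 of 21 and 9 of 15 selected nuclei. Other genes reached larger shares of the oligodendrocyte nuclei. *Tle4* was found in 20.45%, 28.99% and 29.49% of them, *Foxp2* in 9.09%, 7.25% and 15.38%, and the nuclear factor *Nfib* in 34.09%, 33.33% and 44.87%. *Ntsr1*, the neurotensin receptor whose Cre line is widely used to mark these neurons, had no UMI in any of the 58 nuclei. Its level in other excitatory nuclei was 2.52, 3.23 and 2.40 CPM, under the 11.04 CPM that 3 UMIs over all 58 nuclei correspond to, so its absence could not be read.

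The 12 nuclei with no UMI of *Col12a1*, *Garnl3* or *Zfpm2* had a median of 3507 UMIs, against 4152 in the other 46. They held 8 nuclei with *Foxp2*, 10 with the nuclear factor *Nfib* and 4 with *Rorb*, a receptor typical of middle layers. In the other 46 these numbers were 28, 37 and 7. *Rorb* was found in 2 of 22 selected nuclei in C57BL/6, 1 of 21 in *Nav1* KO and 8 of 15 in BTBR. *Rorb* thus stood at 25.6, 9.46 and 171 CPM in the selected nuclei and at 145, 167 and 171 CPM in the other excitatory nuclei.

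Markers of other cells differed from list to list. The astrocyte list was above its level in other excitatory nuclei in all 3 libraries, and the oligodendrocyte list was below it in all 3. Of the 7 layer 6b markers, 5, 5 and 6 were at 0 in C57BL/6, *Nav1* KO and BTBR, and the list summed to 38.3, 18.9 and 11.4 CPM against 70.0, 74.6 and 67.5 CPM in other excitatory nuclei, a difference that the rule set in part by holding *Ccn2* and *Nxph4* at 0. The 5 near-projecting markers summed to 12.8, 18.9 and 0 CPM against 41.5, 76.1 and 72.8 CPM, again set in part by the rule, which limited *Tshz2*. The layer 5 extratelencephalic markers summed to 102, 66.2 and 114 CPM against 101.5, 95.8 and 103 CPM, and the layer 6 intratelencephalic and claustrum markers to 217, 66.2 and 114 CPM against 179, 127 and 169 CPM, so neither list was lower in each library. The 5 middle layer markers summed to 140.5, 94.57 and 250.9 CPM against 203.3, 223.7 and 235.9 CPM, and 15 of their 22 UMIs in BTBR were *Rorb*. Of the 12 inhibitory neuron markers, 8, 10 and 5 were at 0, among them the 3 that the rule set to 0, and the list summed to 115, 75.7 and 661 CPM against 154, 112 and 204 CPM. The BTBR value came from *Sst*, the somatostatin gene of a class of interneurons, with 44 UMIs, of which 43 lay in 1 nucleus of 2365 UMIs that held 2 UMIs each of *Hs3st4* and *Syt6* and none of *Foxp2* or *Tle4*. The 7 astrocyte markers summed to 805, 605 and 627 CPM against 514, 492 and 453 CPM, and nearly all of it was *Slc1a2*, with 59, 57 and 48 UMIs, while 4, 3 and 3 of the markers were at 0. The 6 oligodendrocyte markers summed to 115, 28.4 and 91.2 CPM against 227, 196 and 153 CPM. The 4 precursor markers summed to 25.6, 9.46 and 34.2 CPM, the 5 microglial markers to 38.3, 0 and 11.4 CPM and the 10 vascular and meningeal markers to 25.6, 18.9 and 45.6 CPM. Of the 7 striatal markers, which summed to 830, 407 and 775 CPM against 656, 498 and 515 CPM, *Pde10a* took 48, 36 and 47 UMIs. The 7 olfactory bulb mitral and tufted markers summed to 38.3, 37.8 and 34.2 CPM against 39.0, 132 and 130 CPM. The part of these transcripts in the results below was not tested.

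To find what else set the selected nuclei apart, counts were summed over the selected and over the other excitatory nuclei of each library (7187, 7107 and 7050 nuclei), and the 3 pairs of sums were compared by edgeR's quasi-likelihood test with library as a block. The latter included 82, 86 and 67 nuclei with *Hs3st4* at 1 UMI and 221, 241 and 193 with none that met every other limit. With none, *Garnl3* stood at 337, 204 and 189 CPM and *Ighm* at 63.2, 49.3 and 38.5 CPM. At 1 UMI, *Zfpm2* stood at 167, 175 and 134 CPM, *Ntng1* at 54.7, 97.5 and 83.6 CPM and *Mef2c* at 1178, 963 and 826 CPM. The levels of these genes were thus not particular to the selected nuclei. A gene was called when its Benjamini-Hochberg adjusted p was under 0.05 and its change at least 2-fold. Outside the 11 genes of the rule, 16 of 15362 genes (0.104%) were higher and 86 (0.560%) were lower in the selected nuclei. The split depended on scaling and tool, since library totals in place of TMM factors gave 23 higher and 45 lower, and DESeq2 gave 13 and 7. The number of calls depended on the libraries, with 7 and 45 without C57BL/6, 9 and 44 without *Nav1* KO, and 17 and 84 without BTBR. Lower genes made up 83.0 to 86.5% of these calls, against 84.3% in the main fit. Against as many other excitatory nuclei matched on total UMIs, 6 were higher and 9 lower, but only 1766 genes were tested there. The median log2 fold change of all genes tested was -0.30 with TMM and -0.07 with library totals. A log2 value of the comparison with other excitatory nuclei thus reads about 0.22 higher on the latter scale. Only nuclei of the same 3 libraries entered the test, so its p-values measure how the difference varied between these libraries.

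**Figure D2:**
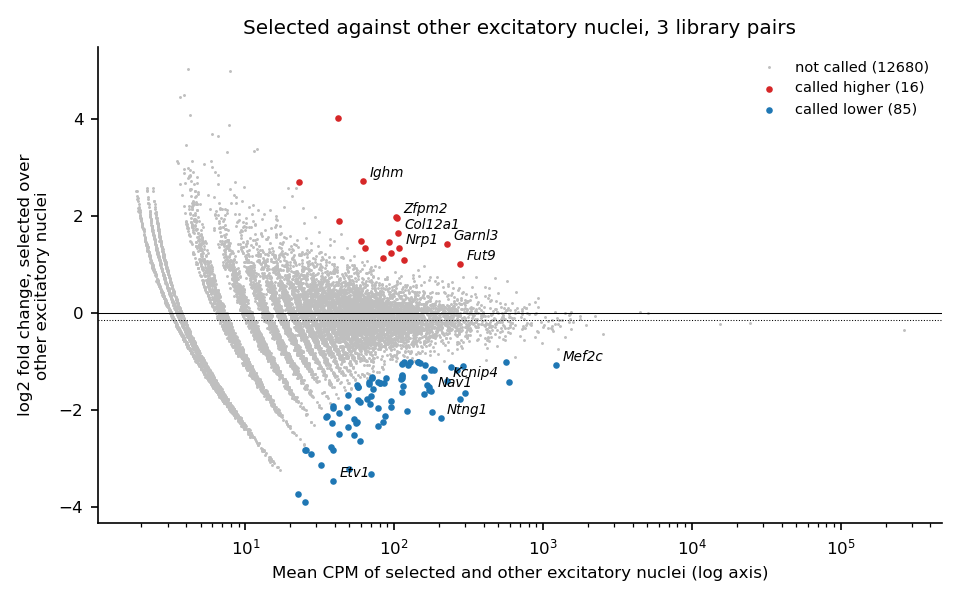
The log2 fold change of selected over other excitatory nuclei (vertical axis) against the mean CPM of both (horizontal log axis) for the 12781 genes outside the rule with at least 1 UMI in the selected nuclei; red and blue points are the 16 genes called higher and the 85 called lower, and the dotted line is the median of the points, -0.15. Blue points outnumber red points, and the red points include *Garnl3*, *Zfpm2* and *Col12a1*.

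The higher genes included 4 corticothalamic markers. *Garnl3* (mm10 chr2:32986224-33131654, minus strand) stood at 511, 236 and 285 CPM in the selected nuclei of C57BL/6, *Nav1* KO and BTBR and at 134, 87.6 and 99.4 CPM in the other excitatory nuclei (log2 fold change 1.42 ± 0.20 (SE), edgeR adjusted p = 1.64e-09). *Zfpm2* (chr15:40655035-41104592, plus strand) stood at 204, 227 and 79.8 CPM against 44.7, 37.5 and 30.4 CPM (1.96 ± 0.30, adjusted p = 5.67e-08). *Col12a1* stood at 217, 123 and 160 CPM against 55.8, 47.1 and 30.6 CPM (1.65 ± 0.29, adjusted p = 8.48e-06). For each of the 3 genes the lowest selected library lay above the highest other library. *Garnl3* and *Zfpm2* kept their call in 13 of 14 alternative analyses and *Col12a1* in 12. *Thsd7b*, which encodes a thrombospondin repeat protein, rose by 1.89 ± 0.48 with 19 UMIs in 13 nuclei. Of the 10 corticothalamic markers outside the rule these 4 were called higher and none lower, with a median log2 fold change of 1.33, and 1 of the 10, *Ntsr1*, had no UMI. *Crym*, a thyroid hormone binding protein, was at 115, 132 and 79.8 CPM against 60.2, 52.7 and 33.7 CPM and did not pass (edgeR adjusted p = 0.198), nor did *Rprm*, a cell cycle regulator, at 25.6, 56.7 and 34.2 CPM against 12.4, 15.3 and 15.9 CPM (adjusted p = 0.640).

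*Ighm*, the constant region of the immunoglobulin M heavy chain, stood at 89.4, 123 and 114 CPM in the selected nuclei and at 20.7, 13.1 and 9.87 CPM in other excitatory nuclei (log2 fold change 2.72 ± 0.42, edgeR adjusted p = 8.25e-08). Its 30 UMIs lay in 21 of the 58 nuclei, 7 in C57BL/6, 9 in *Nav1* KO and 5 in BTBR. In the oligodendrocyte nuclei it was found in 4.55%, 0% and 0%, against 31.8%, 42.9% and 33.3% of the selected nuclei, where a count of 0 in the 69 *Nav1* KO and 78 BTBR nuclei allows a share of up to 4.35% and 3.85%. *Gm10635*, a long intergenic RNA (mm10 chr9:79444037-79519302, minus strand), had the largest named fold change (4.02 ± 0.63), but 15 of its 20 UMIs were in C57BL/6 and all 20 were in 8 nuclei. It lies on the same strand as *Col12a1* (chr9:79598991-79718831), past the 3' end of that gene, with 79688 bases between them. *Fut9*, a fucosyltransferase, was the most widely detected of the called genes that were higher, with 107 UMIs in 45 nuclei and 473, 463 and 239 CPM against 177, 170 and 149 CPM (1.01 ± 0.18, adjusted p = 1.24e-05).

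The other calls included receptors, adhesion proteins and enzymes. *Nrp1*, a receptor for semaphorins, stood at 243, 142 and 103 CPM against 56.9, 61.8 and 41.4 CPM (log2 fold change 1.33 ± 0.28, edgeR adjusted p = 6.58e-04). *Lrrtm2*, a postsynaptic adhesion protein, stood at 141, 114 and 171 CPM against 47.1, 43.0 and 42.0 CPM (1.45 ± 0.31). *Col5a1*, a fibrillar collagen, and *Limk1*, a kinase that acts on cofilin, rose by 1.48 and 1.34. *Ndst1*, which starts the sulfation of heparan sulfate chains, rose by 1.24, the kainate receptor subunit *Grik3* by 1.14 and the phospholipase *Plcb4* by 1.08. Among these 14 genes *Plcb4* was the only one whose groups overlapped, since its 68.4 CPM in the selected nuclei of BTBR lay under the 73.5 CPM of other excitatory nuclei in C57BL/6. *Traf5*, an adaptor of tumour necrosis factor receptors, was called with 11 UMIs and lay under the 50 CPM required of a named gene. *Sst* was also called higher, through the 1 BTBR nucleus above, and it reversed to a log2 fold change of -2.65 when BTBR was left out. Under DESeq2, 10 of the 16 calls kept an adjusted p under 0.05.

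**Figure D3:**
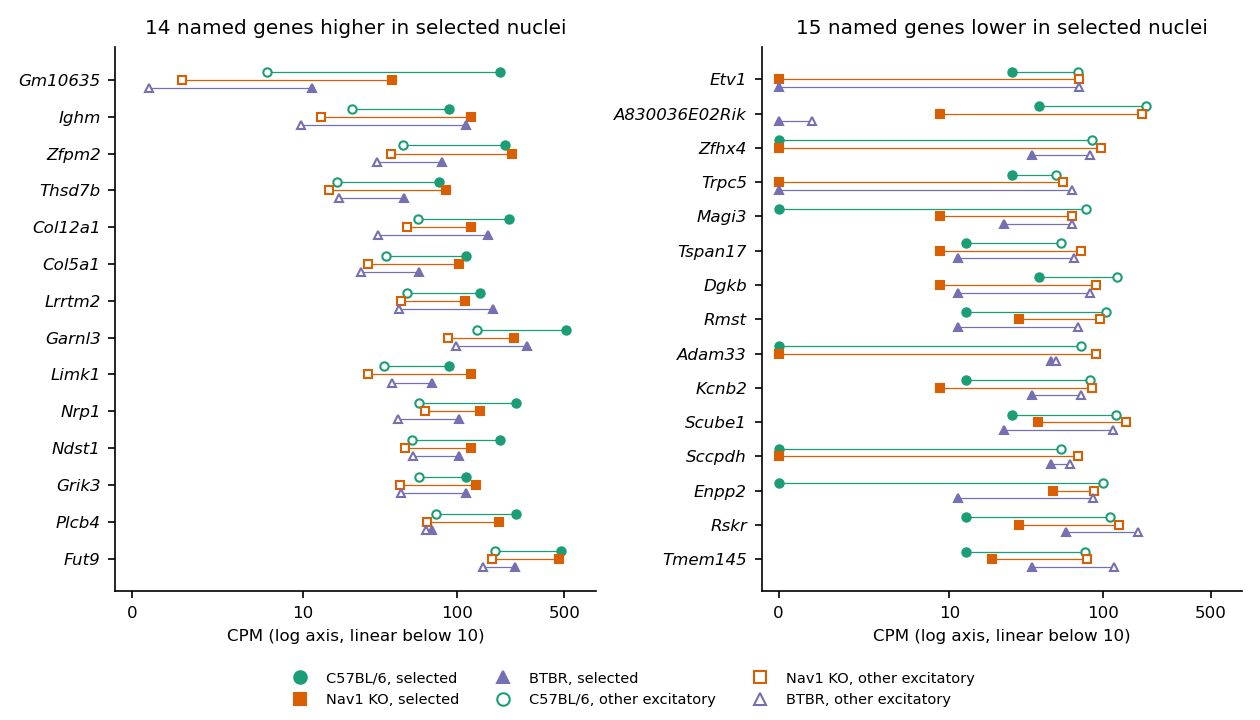
CPM (log axis, linear below 10) of the 14 genes named as higher and the 15 named as lower, in selected nuclei (filled) and other excitatory nuclei (open) of C57BL/6 (circles), *Nav1* KO (squares) and BTBR (triangles), a line joining the pair of a library. Filled points lie to the right of open ones in each library for the higher genes and to the left for the lower genes, with 0 CPM in at least 1 library for *Etv1*, *A830036E02Rik*, *Zfhx4*, *Trpc5*, *Magi3*, *Adam33*, *Sccpdh* and *Enpp2*.

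Most calls were of lower genes. The 5 that held in most alternatives come first, chosen after their values were seen. *Ntng1*, which encodes netrin G1, stood at 63.9, 37.8 and 160 CPM in the selected nuclei and at 203, 378 and 386 CPM in other excitatory nuclei (log2 fold change -2.16 ± 0.26, edgeR adjusted p = 2.52e-13). *Tafa1*, a secreted peptide, stood at 89.4, 66.2 and 274 CPM against 448, 387 and 392 CPM (-1.77 ± 0.22, adjusted p = 3.24e-12). *C1ql3*, a secreted synaptic organizer, stood at 76.7, 132 and 285 CPM against 322, 511 and 472 CPM (-1.64 ± 0.21). *Ntm*, the adhesion molecule neurotrimin, stood at 217, 218 and 673 CPM against 624, 882 and 944 CPM (-1.42 ± 0.17). In these 4 genes the selected nuclei of BTBR were nearest to the other excitatory nuclei. *Ntng1*, *Tafa1*, *C1ql3*, *Ntm* and the adhesion gene *Cntnap5a* were the 5 lower genes that kept their call in 13 of 14 alternatives. All 5 had an adjusted p under 0.05 by DESeq2, as had 8 of the 86.

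The lower genes with the largest named changes were low in count. Where a gene had 3 or fewer UMIs in each library of a population, its log2 fold change is a fitted value. Only its direction is read, here and below. *Etv1*, an ETS factor of layer 5, had 2, 0 and 0 UMIs in the selected nuclei against 68.7, 69.5 and 69.5 CPM in other excitatory nuclei (log2 fold change -3.45 ± 0.66). *Zfhx4*, a homeobox factor, had 0, 0 and 3 UMIs against 84.4, 96.9 and 82.3 CPM (-3.22 ± 0.56), and the channel *Trpc5* had 2, 0 and 0 UMIs (-3.14 ± 0.71). *Wnt4*, a secreted ligand, was called at 0 UMIs in all 3 libraries and was at least 2.85-fold lower, taking 3 UMIs over all 58 nuclei as the floor. *A830036E02Rik* had 3, 1 and 0 UMIs, and in other excitatory nuclei it stood at 189 and 178 CPM in C57BL/6 and *Nav1* KO but at 1.97 CPM in BTBR. The others, *Magi3*, *Tspan17*, *Dgkb*, *Rmst*, *Adam33*, *Kcnb2*, *Scube1*, *Sccpdh*, *Enpp2*, *Rskr* and *Tmem145*, had log2 fold changes of -2.82 to -2.25 with 3 to 9 UMIs each. Of all 86 lower genes, 11 had at most 3 UMIs in the selected nuclei.

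Gene lists placed these calls among functions, each read against the background of 0.104% higher and 0.560% lower and the median of -0.30. Of 14 deep layer transcription factors, *Zfpm2* was higher and *Etv1* and *Mef2c* were lower, with a median of 0.17. *Mef2c*, an activity-dependent factor abundant in upper layers, was in 56 of 58 nuclei and stood at 830, 927 and 832 CPM against 1835, 1576 and 1323 CPM (log2 fold change -1.08 ± 0.15, edgeR adjusted p = 2.57e-10). With library totals it was at -0.85, under the 2-fold limit, so its call depended on the scaling. *Nfib* stood at 741, 577 and 570 CPM against 338, 280 and 362 CPM and passed the adjusted p (9.68e-04) but not the 2-fold limit. *Tbr1* (115, 56.7 and 79.8 CPM against 38.7, 34.5 and 39.2 CPM), *Sox5* and *Fezf2* did not pass (adjusted p = 0.507, 0.904 and 0.983). Of 8 layer 2/3 markers, *Cux2* and *Rasgrf2* were lower and the median was -1.85, and of the 4 middle layer markers tested *Rorb* was lower. In BTBR, however, *Rorb* stood at the same level in both populations. None of the 5 layer 6b markers outside the rule was called.

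Of 27 heparan sulfate enzymes and proteoglycans tested, the family to which *Hs3st4* belongs, *Ndst1* was higher and *Ndst3* and *Gpc6* were lower, with a median log2 fold change of -0.81. Since 6 of the 27 had no UMI in the selected nuclei and so had fitted values, the size of this median is not read. Among 15 other synaptotagmins *Syt4* was lower, and among 7 other Groucho and Foxp genes *Tle2* was lower. Of 36 axon guidance genes, *Nrp1* was higher and *Ntng1* and *Slit3* were lower. Of 35 cadherins and adhesion genes none was higher and *Cdh10*, *Cntnap5a*, *Pcdh15* and *Tenm4* were lower. Of 34 potassium and HCN channel genes *Kcnip4* and *Kcnb2* were lower, and of 21 sodium and calcium channel genes *Cacna1g* and *Cacna2d3* were lower, with list medians of -0.27 and -0.29. *Kcnip4*, a partner of A-type potassium channels, stood at 76.7, 132 and 205 CPM against 230.4, 380 and 328 CPM (log2 fold change -1.40 ± 0.23, edgeR adjusted p = 4.98e-07). Of 17 ionotropic glutamate receptor genes *Grik3* was higher, and no call was made among 7 metabotropic glutamate receptors, 14 GABA receptors or 27 monoamine and acetylcholine receptors. *Bdnf* was the only call among 14 activity-regulated genes, lower with 1 UMI, and *Sst* the only call among 24 neuropeptide genes. The layer 5 lists, the claustrum list, the striatal list and the glial and vascular lists gave no call in this comparison.

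Nuclei with layer 6b markers were compared next. Layer 6b type nuclei, excitatory nuclei with at least 2 UMIs of *Ccn2* and *Nxph4*, numbered 79, 178 and 98. The name rests on these 2 genes, and all 3 olfactory bulb markers tested were higher in this set than in the selected nuclei. Outside the rule, 23 of 4352 genes (0.528%) were higher and 84 (1.93%) were lower in the selected nuclei by the same test, and DESeq2 gave 2 and 8, with no adjusted p for 65 of the 107 genes called by edgeR. *Garnl3* was again higher, at 511, 236 and 285 CPM against 129.5, 95.02 and 91.8 CPM (log2 fold change 1.67 ± 0.24, edgeR adjusted p = 2.25e-07). *Ighm* (17.98, 22.8 and 16.7 CPM in layer 6b type nuclei) and *Crym* (32.4, 34.8 and 27.8 CPM) were higher by 2.51 ± 0.51 and 1.81 ± 0.43. The adhesion gene *Cdh9*, *Tmem196*, *Col5a1*, the immediate early factor *Egr1* and the secreted glycoprotein *Dkk3* completed the 8 genes named as higher, with log2 fold changes of 1.48 to 2.44. *Col12a1* did not separate the populations, at 217, 123 and 160 CPM against 187, 70.9 and 52.8 CPM (adjusted p = 0.158), nor did *Thsd7b* (adjusted p = 0.828), and *Zfpm2* fell short of 2-fold (0.95 ± 0.29). Thus 2 of 7 corticothalamic markers tested, *Garnl3* and *Crym*, were higher and none was lower, with a median of 0.78 against 0.01 for all genes tested. The calls of *Crym* and *Ighm* were lost without the *Nav1* KO library, and DESeq2 gave neither an adjusted p, while *Garnl3* kept its call in all 10 alternatives.

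Among the lower genes of this comparison, *Tmem108* stood at 63.9, 104 and 125 CPM against 349, 679.9 and 809 CPM (log2 fold change -2.61 ± 0.25, edgeR adjusted p = 1.34e-13) and *Cpne4*, a copine, at 38.3, 28.4 and 45.6 CPM against 194, 305 and 334 CPM (-2.89 ± 0.36). *Chga*, a granin of secretory granules, stood at 25.6, 66.2 and 45.6 CPM against 248, 256 and 245 CPM (-2.34 ± 0.34). These 3 genes, chosen here after their values were seen, kept their call with *Garnl3*, *Ptgds* and *Scube1* in all 10 alternatives. *Fbxl7*, an F-box protein, had no UMI in the selected nuclei against 133, 102 and 69.5 CPM, and was at least 9.03-fold lower. *Inpp4b*, the 1 layer 6b marker tested, was at 25.6, 0 and 11.4 CPM against 93.5, 65.6 and 119.6 CPM (-2.97 ± 0.62). Several of the named lower genes were low in the layer 6b type nuclei of C57BL/6 alone: *Cdhr1*, a cadherin of olfactory bulb mitral cells, stood at 3.60, 138 and 209 CPM there, *Rab37* at 3.60, 74.9 and 72.3 CPM and the growth factor *Igf1* at 10.8, 102 and 114 CPM. The adenylyl cyclase *Adcy8*, *Pip5k1b*, *Rasa4* and *Apod* completed the 8 named lower genes, with 1 or 2 UMIs each in the selected nuclei and log2 fold changes of -4.50 to -3.49. All 3 olfactory bulb markers tested, *Cdhr1*, *Doc2g* and *Eomes*, were lower in the selected nuclei, and *Eomes* had no UMI in either population of C57BL/6. The part of nuclei with bulb markers in the lower calls was not tested. Without the *Nav1* KO library, 2 genes were higher and 5 lower, so most calls of this comparison rested on it.

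Layer 2/3 type nuclei, with at least 4 UMIs of *Cux2*, *Rasgrf2* and *Otof*, of which at least 2 of *Cux2*, and at most 1 of *Foxp2*, *Tle4*, *Hs3st4* and *Syt6*, numbered 175, 242 and 151. Outside the genes that defined either population, 86 of 7862 genes (1.09%) were higher and 119 (1.51%) were lower in the selected nuclei, with 87 and 77 by library totals and 37 and 32 by DESeq2, which gave no adjusted p for 62 of the 205 genes called. The numbers were 33 and 39 without *Nav1* KO, 58 and 51 without C57BL/6 and 109 and 138 without BTBR. All 7 corticothalamic markers tested were higher, *Col12a1*, *Crym*, *Garnl3*, *Pcp4*, *Rprm*, *Thsd7b* and *Zfpm2*, with a median log2 fold change of 2.99 against -0.04 for all genes tested. *Col12a1* stood at 20.4, 17.3 and 7.67 CPM and *Zfpm2* at 23.8, 19.99 and 16.6 CPM in the layer 2/3 type nuclei (3.26 ± 0.39 and 2.99 ± 0.35, edgeR adjusted p = 1.31e-06 and 1.11e-06). *Ighm* was called higher too, but it had only 1, 3 and 0 UMIs in the layer 2/3 type nuclei. These lay at or under the floor of 3 UMIs in each library, so only its direction is read. *Nfib* (log2 fold change 1.20 ± 0.16), *Nfia* and *Bcl11b*, a zinc finger factor of deep layer neurons, were also higher, although *Nfia* in BTBR stood at 22.8 CPM against 26.8 CPM. *Nrp1* stood at 243, 142 and 103 CPM against 27.2, 29.99 and 21.7 CPM (2.44 ± 0.34), and the serotonin receptor *Htr1f* at 166, 132 and 171 CPM against 32.8, 26.0 and 32.0 CPM (2.24 ± 0.32). *Rai14*, *Col23a1* and *Sema5a* (log2 fold changes 3.90, 3.34 and 3.13) completed the named higher genes with *Gm10635*. The astrocytic transporter *Slc1a2* was higher too, at 754, 539 and 547 CPM against 282, 246 and 247 CPM (1.12 ± 0.15).

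The lower genes included upper layer markers. *Lamp5* stood at 25.6, 47.3 and 79.8 CPM in the selected nuclei against 165, 214 and 212 CPM (log2 fold change -2.06 ± 0.32, edgeR adjusted p = 6.69e-05), *Calb1* had 3, 0 and 0 UMIs against 99.6, 63.97 and 60.1 CPM (-2.83 ± 0.64), and *Cux1* and *Stard8* were lower as well, so that 4 of 5 layer 2/3 markers outside the definition were called. *Bdnf* had 0, 0 and 1 UMI against 61.1, 62.6 and 39.6 CPM (-3.93 ± 0.89), *Kctd4* 1, 0 and 0 UMIs (-4.09 ± 0.86) and *Mkx* 0, 2 and 0 UMIs (-3.54 ± 0.68). These values were fitted to counts under 3 UMIs in each library, so only the direction is read. *Mef2c* stood at 2457, 1858 and 1591 CPM in the layer 2/3 type nuclei, above all 3 selected libraries (-1.28 ± 0.12, adjusted p = 2.20e-08). *Zfhx4*, *Magi3*, *Trpc6*, *Palmd* and *A830036E02Rik* had log2 fold changes of -3.79 to -3.12. Of 31 axon guidance genes 3 were higher (*Dcc*, *Nrp1* and *Sema5a*) and 5 lower, and of 31 adhesion genes 4 were higher (*Cdh9*, *Cntnap4*, *Pcdh17* and *Pcdh9*) and 5 lower. In all, 46 genes kept their call in each of the 10 alternatives, among them *Garnl3*, *Ighm*, *Zfpm2*, *Col12a1*, *Nrp1*, *Fut9*, *Nfib*, *Htr1f*, *Mef2c* and *Lamp5*.

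**Figure D4:**
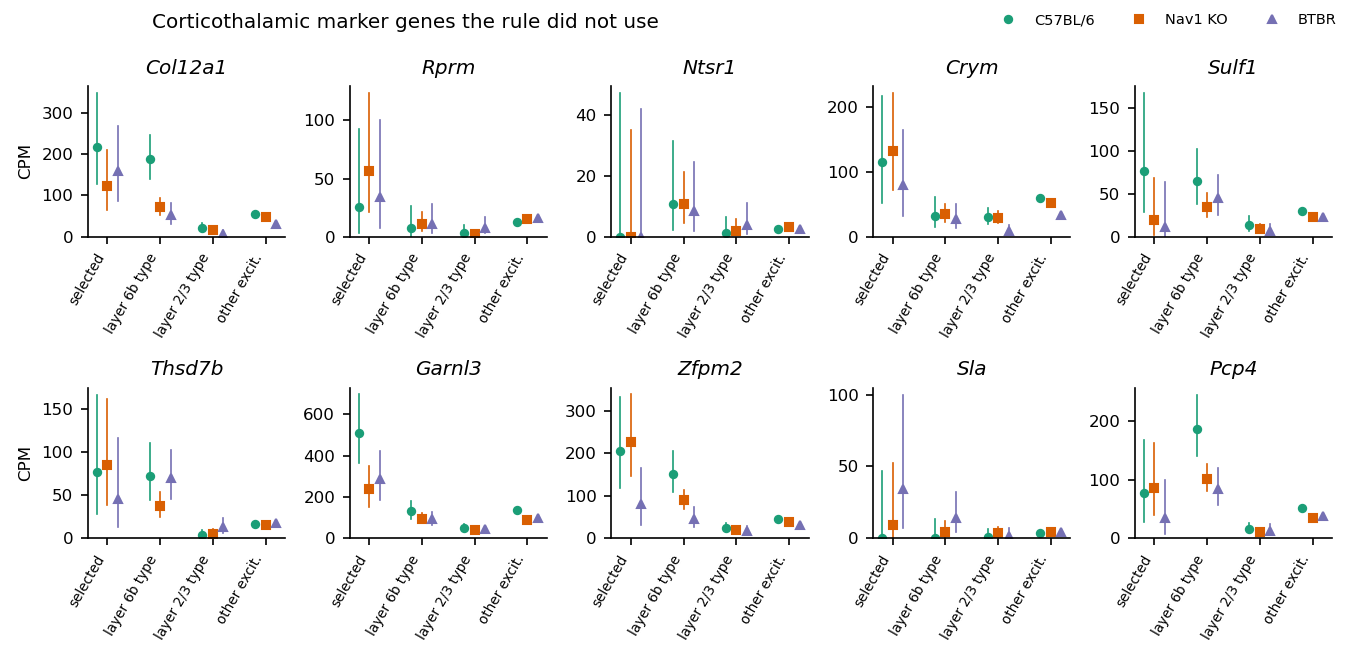
CPM (vertical axes, starting at 0) of 10 corticothalamic marker genes that the rule did not use, in the selected, layer 6b type, layer 2/3 type and other excitatory nuclei of C57BL/6 (circles), *Nav1* KO (squares) and BTBR (triangles), with exact 95% Poisson intervals. *Garnl3* is higher in the selected nuclei than in each other population, *Col12a1* overlaps with the layer 6b type nuclei, and *Ntsr1* is at 0 in the selected nuclei with intervals that reach above the other populations.

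*Nav1*, the gene deleted in the *Nav1* KO, encodes a microtubule-associated neuron navigator. It gave 11 UMIs in the selected nuclei of C57BL/6 (140.5 CPM, interval 70.2 to 251), 6 in *Nav1* KO (56.7, 20.8 to 123.5) and 9 in BTBR (103, 46.9 to 195), and the 3 intervals overlapped. The deletion lies in exon 1 and the libraries count tags near the 3' end, so these counts do not check the genotype. In other excitatory nuclei *Nav1* stood at 344, 269.8 and 146.5 CPM. It was called lower in the selected nuclei than in the other excitatory (log2 fold change -1.62 ± 0.26, edgeR adjusted p = 3.90e-07), layer 6b type (-1.72 ± 0.28, adjusted p = 7.92e-06) and layer 2/3 type nuclei (-1.65 ± 0.27, adjusted p = 1.56e-04), with UMIs in 19 of the 58 nuclei. Under DESeq2 its adjusted p was 0.147, 0.0540 and 0.0171. *Nav2* (805, 359 and 468 CPM against 463, 389 and 419 CPM) and *Nav3* (537, 463 and 456 CPM against 440.2, 406 and 423 CPM) were not called.

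The selected nuclei of the libraries were then set side by side. For *Nav1* KO against C57BL/6, 723 genes had enough UMIs, with 20 or more on one side and a level of 50 CPM or more on the opposite side. Their median ratio was 0.951, 71 genes (9.82%) were at least 1.5-fold higher and 125 (17.3%) at least 1.5-fold lower, and in the other excitatory nuclei, which held 21000673 UMIs in C57BL/6 and 27286170 in *Nav1* KO, 11 and 24 of the same genes were. For BTBR against C57BL/6, 87 of 639 genes (13.6%) were at least 1.5-fold higher and 165 (25.8%) lower, with 28 and 21 in the other excitatory nuclei. The interval of the ratio left out 1 for 94 genes in *Nav1* KO and 145 in BTBR, with no correction for the number of genes. Both comparisons share the C57BL/6 library, in which the selected nuclei held the fewest UMIs. With nuclei of at least 2000 UMIs, each thinned to 2000, 20 genes were past 1.5-fold higher and 44 lower in *Nav1* KO. In BTBR 7 were higher and 54 lower.

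The 8 genes highest in *Nav1* KO over C57BL/6 rested on 4 to 8 UMIs in C57BL/6. *Rc3h2*, an RNA-binding ubiquitin ligase, had 30 UMIs in 16 nuclei of *Nav1* KO and 5 UMIs in 4 nuclei of C57BL/6, a ratio of 4.44 (interval 1.71 to 14.7) that stood beside 0.901 in other excitatory nuclei. *Brinp3* had a ratio of 3.70 (1.24 to 14.9) beside 0.907, with its 20 UMIs in 6 nuclei. *Sbf1*, a myotubularin relative, had a ratio of 3.70 (1.24 to 14.9) beside 2.01 (1.91 to 2.13) in other excitatory nuclei, so both populations were higher. *Bms1*, *Rexo4*, *Dnajb4*, *Brd1* and *Klhl24* had ratios of 2.50 to 3.70, beside 1.12 to 1.40. The *Klhl24* ratio reversed to 0.992 when 1 *Hs3st4* UMI was accepted. At the low end, the mitochondrial transcripts *mt-Nd4* and *mt-Atp6* had ratios of 0.310 (0.188 to 0.498) and 0.363 (0.270 to 0.483), beside 0.993 and 0.660, and 20 and 36 of their C57BL/6 UMIs lay in 1 nucleus. The *mt-Nd4* ratio reversed to 1.01 when 1 *Hs3st4* UMI was accepted. *Prrc2c* had a ratio of 0.352 (0.192 to 0.622) beside 0.676, *Mirg* 0.303 (0.123 to 0.684) beside 0.631 and *Rasgrp1* 0.370 (0.175 to 0.747) beside 0.722, each lower in both populations. *Gm47423*, *Sbf2* and *Fth1* had ratios of 0.236, 0.370 and 0.370 beside 0.934, 0.959 and 1.01. The *Fth1* ratio reversed to 1.17 with at least 6 UMIs over the 4 genes of the sum.

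For BTBR, *Apoe*, the lipid carrier made mostly by glia, had 31 UMIs against 7 in C57BL/6, a ratio of 3.95 (1.71 to 10.6) beside 1.71 in other excitatory nuclei, and 12 of the 31 lay in 1 nucleus. *Hap1*, *Rc3h2*, *Stmn3*, *C1ql3*, *Ift20* and *Dvl1* had ratios of 3.12 to 4.46 beside 1.00 to 1.47, and *Guf1* had 3.27 (1.29 to 9.87) beside 0.900 (0.857 to 0.945). *AC149090.1* had 29 UMIs in BTBR and 115 in C57BL/6, a ratio of 0.225 (0.144 to 0.341) that nearly equalled the 0.235 of the other excitatory nuclei. The non-coding RNA *AY036118* (0.287 beside 0.413) and the phosphodiesterase *Pde4d* (0.264 beside 0.441) were also lower in both. *Rasgrp1* (0.206), *mt-Co1* (0.251), *mt-Atp6* (0.252), *Zfp280d* (0.268) and *mt-Nd4* (0.288) completed the 8 lowest, beside 0.553 to 0.879 in other excitatory nuclei.

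**Figure D5:**
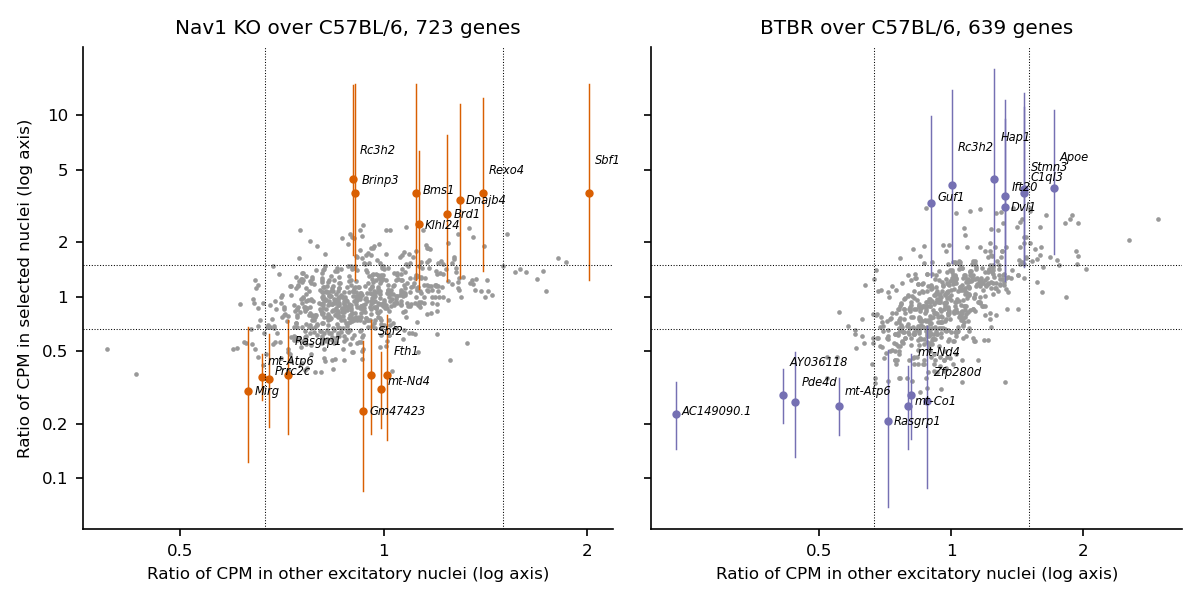
Ratio of CPM of *Nav1* KO (left, 723 genes) or BTBR (right, 639 genes) over C57BL/6 in the selected nuclei (vertical log axis) against the same ratio in other excitatory nuclei (horizontal log axis), with dotted lines at 1.5-fold; coloured points are the 8 highest and 8 lowest genes in the selected nuclei with exact 95% intervals, and their names are moved apart where they would overlap. The ratios of the selected nuclei spread far wider than those of the other excitatory nuclei, and *AC149090.1* in BTBR is low in both.

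Summed over lists, the corticothalamic markers outside the rule stood at 1303 CPM in the selected nuclei of C57BL/6 (interval 1062 to 1582), 974 in *Nav1* KO (795 to 1181) and 764 in BTBR (592 to 970.2). The ratios to C57BL/6 were 0.748 (0.563 to 0.993) for *Nav1* KO and 0.586 (0.424 to 0.806) for BTBR, beside 0.777 and 0.714 in other excitatory nuclei, so the order of the libraries was the same in both populations. The 3 neuron navigators summed to ratios of 0.594 (0.447 to 0.786) and 0.693 (0.520 to 0.920), beside 0.854 and 0.793. Of their 116, 93 and 90 UMIs in C57BL/6, *Nav1* KO and BTBR, *Nav1* gave only 11, 6 and 9. In C57BL/6, *Nav2* gave 63 of the 116. The ionotropic glutamate receptors, the list with the most UMIs (756, 1100 and 974), had ratios of 1.08 (0.981 to 1.18) and 1.15 (1.05 to 1.27), beside 0.903 and 1.10. The potassium and HCN channels had ratios of 0.983 (0.845 to 1.15) and 0.969 (0.827 to 1.14), and the GABA receptors 1.02 (0.798 to 1.30) and 0.961 (0.741 to 1.25). The sodium and calcium channels stood at 0.833 (0.718 to 0.966) in *Nav1* KO, beside 0.844, and at 0.9496 (0.817 to 1.10) in BTBR. The heparan sulfate list stood at 0.625 (0.455 to 0.858) in *Nav1* KO, beside 0.947, and at 0.883 (0.651 to 1.20) in BTBR. Some lists of other cell types were also lower in *Nav1* KO, the striatal list with a ratio of 0.490 (0.325 to 0.731) beside 0.7595, the layer 6 intratelencephalic and claustrum list with 0.305 (0.107 to 0.773) beside 0.709 and the oligodendrocyte list with 0.247 (0.0430 to 0.989) beside 0.8605, the last on 3 and 9 UMIs. The layer 2/3 list went the other way, with intervals that included 1. Its ratios were 1.974 (0.8858 to 4.826) in *Nav1* KO and 2.182 (0.9656 to 5.383) in BTBR, beside 0.9783 and 0.9512. The part of these lists in the other list ratios was not tested. Of the 30 lists the interval left out 1 for 7 in *Nav1* KO, all lower, and for 6 in BTBR, 3 higher and 3 lower. Of the 3 higher in BTBR, the inhibitory neuron list had 58 UMIs, 44 of them *Sst*, against 9 in C57BL/6, and the neuropeptide list had 131 UMIs, with the same 44, against 38, so that most of its UMIs were of other genes.

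Variation among the selected nuclei was measured after thinning to 2000 UMIs the 18, 21 and 14 nuclei that held that many. The variance of a gene divided by its mean is near 1 where counts vary only by sampling, and the medians over 919 genes were 1.00, 1.00 and 0.974. Thinned to 1000 UMIs instead, 326 genes could be measured and 2 exceeded 1.5 in all 3 libraries. At 2000 UMIs 12 genes exceeded 1.5 in all 3 libraries. They were led by the nuclear long non-coding RNAs *Malat1* (20.1, 39.2 and 62.5) and *Meg3* (3.90, 6.95 and 4.76), followed by the mitochondrial *mt-Co3* and *mt-Co1*, and by *AC149090.1*, *AY036118* and *Snhg11*. *Pde10a*, a phosphodiesterase abundant in striatal neurons, had ratios of 4.10, 1.85 and 1.80 and was found in 8 of 18, 7 of 21 and 6 of 14 nuclei with up to 8 UMIs. The AMPA receptor subunit *Gria2* (2.04, 3.30 and 1.76) and the transcriptional coactivator *Zmiz1* (1.56, 1.90 and 1.56) completed the 10 most variable genes.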

How the data were processed

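Nuclei from pooled PFC of C57BL/6, *Nav1* KO and BTBR mice were profiled with 10x Genomics 3' v3.1 chemistry, and the authors aligned reads to mm10 and made the count matrices with Cell Ranger 6.0.0. The deposited values are raw UMI counts per gene and barcode, and no ambient RNA correction was applied to them here. Barcodes under 200 genes or with a mitochondrial share of 10% or more were dropped, which left 14630 of 15402, 14056 of 14623 and 14778 of 15238, with 38704723, 50965774 and 48948184 UMIs. The 772, 567 and 460 removed barcodes included 0, 1 and 0 that met the marker limits. The members and the gene lists were chosen with earlier results of these data known, so they give no independent support. Counts were summed per library and population and compared with edgeR 4.0.16 (R 4.3.3) by the quasi-likelihood test with TMM factors and library as a block, since both sums of a pair come from the same mice and library. DESeq2 1.42.0 was an alternative. The median UMI counts and sums per library limit the precision, and intervals for CPM (Poisson), shares (Clopper-Pearson) and ratios (binomial) are exact 95% intervals. Named genes were those called, moved the same way in all 3 libraries and had at least 50 CPM in the higher population, the 15 largest each way for other excitatory nuclei and 8 each way for the others, with the 8 highest and lowest library ratios and the 10 most variable genes. On simulated counts with 200 genes changed 4-fold, the test against other excitatory nuclei (15388 genes) called 75 of the 200 and 15 of the 16 at 100 CPM or more, with 2 unchanged genes called. Against layer 6b and layer 2/3 type nuclei it called 199 and 184 of the 200, with 7 and 6 unchanged genes called. All simulated libraries were drawn from the same profile, so the error rate under real differences between libraries was not tested. Scanpy 1.11.5, scipy 1.17.1 and Python 3.11.15 were used. The most abundant gene of the oligodendrocyte list is not reported here. Coordinates are from GENCODE M21 on GRCm38 (mm10).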

Additional observations from a re-analysis of the deposited data

Results flagged for a closer look

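Among the 8 highest and 8 lowest genes of each library ratio, 3 moved one way in the selected nuclei and the other way in other excitatory nuclei, with both intervals excluding 1. Over all genes compared there were 13 such genes of 723 in *Nav1* KO and 8 of 639 in BTBR. The difference was not tested, since each group is 1 library. *Rc3h2* had a ratio of *Nav1* KO over C57BL/6 of 4.44 in the selected nuclei and 0.901 in other excitatory nuclei. *Brinp3* had ratios of 3.70 and 0.907 in the same comparison. *Guf1* had a ratio of BTBR over C57BL/6 of 3.27 in the selected nuclei and 0.8997 in other excitatory nuclei. The C57BL/6 values rested on 5, 4 and 6 UMIs. Each gene met the limit on UMIs only through the library where it was high and was picked for its extreme ratio. The intervals therefore give no support to a difference. *Rc3h2* was also higher in BTBR, with a ratio of 4.11 over the same C57BL/6 value. That value was 63.9 CPM, against 219 CPM in the other excitatory nuclei of C57BL/6.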

How the results depend on the processing

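The 58 nuclei gave 271726 UMIs, which limits the precision of every value. No call against other excitatory nuclei held in all 14 alternatives, since the fit with no replicate block made none. The alternatives with 1 *Hs3st4* UMI, without the GABAergic limit, with matched comparator nuclei and with library totals were chosen after seeing the data. The cause of the changes below was not tested.

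The share of selected nuclei in C57BL/6, *Nav1* KO and BTBR was 0%, 0.0156% and 0% after thinning to 1000 UMIs, 0.06835%, 0.0783% and 0.0474% with at least 6 UMIs over the 4 genes, and 0.711%, 0.761% and 0.555% with 1 *Hs3st4* UMI. Without the GABAergic limit it was 0.2703% in *Nav1* KO and 0.183% in BTBR.

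Against other excitatory nuclei, leaving out 1 library gave 7 to 17 higher and 44 to 84 lower genes, with 7 and 45 without C57BL/6 and 9 and 44 without *Nav1* KO. DESeq2 gave 7 lower, library totals 45 lower, 6 UMIs 5 higher, 1 *Hs3st4* UMI 64 higher and 194 lower, and thinning to 2000 UMIs 6 higher. As many matched nuclei gave 6 higher and 9 lower, of only 1766 genes tested. The fit with no replicate block, which ignores the pairing of the sums, called 0 higher and 0 lower by edgeR, with 1177 genes at an unadjusted p under 0.05, and DESeq2 with the block called 13 and 7. *Sst* had log2 fold changes of -2.65 to 2.58 when 1 library was left out and reversed to a log2 fold change of -0.75 with DESeq2, -2.65 without BTBR and -2.72 with 6 UMIs, and against layer 2/3 type nuclei to -2.10 with 6 UMIs.

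Against layer 6b type nuclei, leaving out 1 library gave 2 to 29 higher and 5 to 80 lower genes, the lowest of both without *Nav1* KO. DESeq2 gave 2 and 8, 6 UMIs 13 higher, and 1 *Hs3st4* UMI 65 and 170. Against layer 2/3 type nuclei, leaving out 1 library gave 33 to 109 higher and 39 to 138 lower genes, with 33 and 39 without *Nav1* KO and 51 lower without C57BL/6. DESeq2 gave 37 and 32, no filter on low counts 200 lower, 6 UMIs 54 higher, 1 *Hs3st4* UMI 231 and 263, and library totals 77 lower.

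For *Nav1* KO over C57BL/6, genes past 1.5-fold were 20 higher and 44 lower after thinning, 48 lower with 6 UMIs, 126 and 424 with 1 *Hs3st4* UMI, and 6 and 20 when 100 CPM and 50 counts were required. *Klhl24* reversed to 0.992 and *mt-Nd4* to 1.01 with 1 *Hs3st4* UMI, and *Fth1* to 1.17 with 6 UMIs. For BTBR the counts were 7 and 54, 55 and 63 with 6 UMIs, 217 and 269, and 10 and 28. The number of genes with variance over mean above 1.5 in all 3 libraries was 2 after thinning to 1000 UMIs. Counting each pair of a single gene and an alternative against other excitatory nuclei, the direction and the side of the threshold were kept in 284 pairs, the call was lost in 129 and the direction reversed in 3, all of *Sst*.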
